A study of Vaccinium virgatum with 9 samples.

Results

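The most abundant transcripts of rabbiteye blueberry fruit were taken as the genes with a mean of at least 500 CPM (counts scaled by library size and TMM factors) over the 9 libraries of the study. Of the 38665 genes in the deposited count table, 213 reached that level, 0.551% of the rows. Rabbiteye blueberry (Vaccinium virgatum) is a polyploid fruit shrub. RNA was sequenced from fruit of 7-year-old potted plants of the cross Menditoo × Tifblue, picked 90 days after flowering, with 12 to 18 fruits pooled in each replicate. The YG-10 plants had received 10 g of potassium sulfate at the young fruit stage, the KH-10 plants 10 g of potassium sulfate at the flowering stage, and the CK plants water alone. Each group held 3 libraries.

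By its title, the study concerns how potassium raises anthocyanin in the fruit. Potassium is the main inorganic cation of plant cells, where it sets turgor and serves the loading and transport of sugars into fruit, and anthocyanins are the red to blue pigments that collect in the skin of the ripening berry. The transcripts with the most reads in a fleshy fruit set much of what a library measures, since every other transcript is read as a share of the same total. In such tissues they commonly include transcripts for housekeeping, stress, cell wall and storage proteins. None of the 213 genes can be given such a role here, because the table holds identifiers without names and no annotation or sequence was used. Genes are therefore called by their rank of mean CPM, and identifiers are added only for the Vadar genes among those with the largest changes. The genes were chosen by their mean CPM over all 9 libraries, so their levels are given as a description. CPM is not corrected for transcript length, so rank 1 means the most counts and not the most molecules, and levels are compared within a gene and not between genes. Of the 213 genes, 194 have identifiers that begin with Vadar and 19 have the other prefix of the table (non-Vadar loci), which makes 0.686% of the 28300 Vadar rows and 0.183% of the 10365 non-Vadar rows.

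Library totals ran from 15655016 to 18424967 counts, and no pair of replicates agreed to within sampling noise. Separate plants are not stated for the replicates of a group, and the spread behind each p-value may thus be technical in part. Potassium and sulfate were given together, and the time of treatment sets the interval to harvest, so neither pair can be told apart. In bulk fruit, a change in the number of cells of a type and a change in RNA per cell cannot be told apart either.

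Rank 1 was the same gene in all 9 libraries. It had 14237, 15366 and 14766 CPM in YG-10, 16751, 18094 and 16132 CPM in KH-10, and 8932, 9584 and 7766 CPM in CK. Both potassium groups lay wholly above CK, and KH-10 lay wholly above YG-10. Against CK it rose by 0.74 ± 0.05 on the log2 scale in YG-10 and by 0.94 ± 0.05 in KH-10 (SE, edgeR adjusted p = 2.71e-11 and 3.84e-13). This gene took 1.43 ± 0.05% of all counts in YG-10, 1.65 ± 0.08% in KH-10 and 0.929 ± 0.104% in CK (SD, n = 3 each).

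Rank 2 showed 8486, 8811 and 8564 CPM in YG-10, 6800, 7436 and 6846 CPM in KH-10, and 3243, 3306 and 3103 CPM in CK, with no overlap between groups and YG-10 the highest. Its log2 fold change over CK was 1.41 ± 0.04 in YG-10 and 1.11 ± 0.04 in KH-10 (SE, edgeR adjusted p = 3.62e-19 and 3.39e-17). Rank 3 averaged 5115 ± 219 CPM in YG-10, 6069 ± 75.2 CPM in KH-10 and 4819 ± 351 CPM in CK. Its KH-10 level rose over CK by a log2 fold change of 0.32 ± 0.04 (SE, edgeR adjusted p = 2.01e-06), while YG-10 and CK overlapped. At rank 4 the timings parted, with 3374, 3620 and 3580 CPM in YG-10, 6378, 6736 and 6286 CPM in KH-10, and 5341, 5695 and 5018 CPM in CK. Relative to CK this gene rose in KH-10 (by 0.26 ± 0.04 on the log2 scale, SE, edgeR adjusted p = 2.23e-05) and fell in YG-10 (-0.61 ± 0.04, edgeR adjusted p = 2.13e-11), and the direct difference of YG-10 from KH-10 was -0.87 ± 0.04 on the log2 scale (edgeR adjusted p = 3.57e-13).

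The gene at rank 5 was the one of the highest 10 with the largest gain in YG-10 over KH-10. It stood at 7450, 7852 and 7811 CPM in YG-10, 3625, 3812 and 3526 CPM in KH-10, and 2948, 3038 and 2831 CPM in CK. The 3 groups did not overlap, and YG-10 exceeded KH-10 2.11-fold (log2 fold change 1.08 ± 0.04, SE, edgeR adjusted p = 1.37e-15). Rank 6, a non-Vadar locus, averaged 5998 ± 96.4 CPM in YG-10, 5191 ± 52.7 CPM in KH-10 and 2568 ± 113 CPM in CK. Ranks 7 and 9 were highest in CK. Rank 7 averaged 2441 ± 86.1 CPM in YG-10, 3736 ± 38.7 CPM in KH-10 and 5667 ± 290.4 CPM in CK. For rank 9 the means were 1984 ± 125 CPM in YG-10, 2863 ± 73.6 CPM in KH-10 and 6193 ± 633 CPM in CK.

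Rank 8 was the gene of the highest 10 that depended most on the potassium libraries for its place. It had 3633, 3980 and 4075 CPM in YG-10, 6835, 6935 and 6440 CPM in KH-10, and 637, 684 and 643 CPM in CK. By group means it was rank 8 in YG-10, rank 3 in KH-10 and rank 127 in CK. It was 5.90-fold higher in YG-10 than in CK and 10.2-fold higher in KH-10 than in CK (log2 fold changes 2.56 ± 0.05 and 3.35 ± 0.05, SE). Rank 10 was higher than CK in both potassium groups, averaging 3661 ± 155 CPM in YG-10, 3916 ± 101 CPM in KH-10 and 2972 ± 70.6 CPM in CK.

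Turnover at the top was larger against CK than between the timings. Of the 10 genes with the highest group means, YG-10 shared 2 with CK, KH-10 shared 4 with CK, and YG-10 shared 8 with KH-10. Among the 50 highest the numbers were 31, 34 and 45. All 10 of the highest in each group were among the 213 genes. The rule of membership fixed this, since their levels in that group alone carry the mean past 500 CPM.

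**Figure D1:**
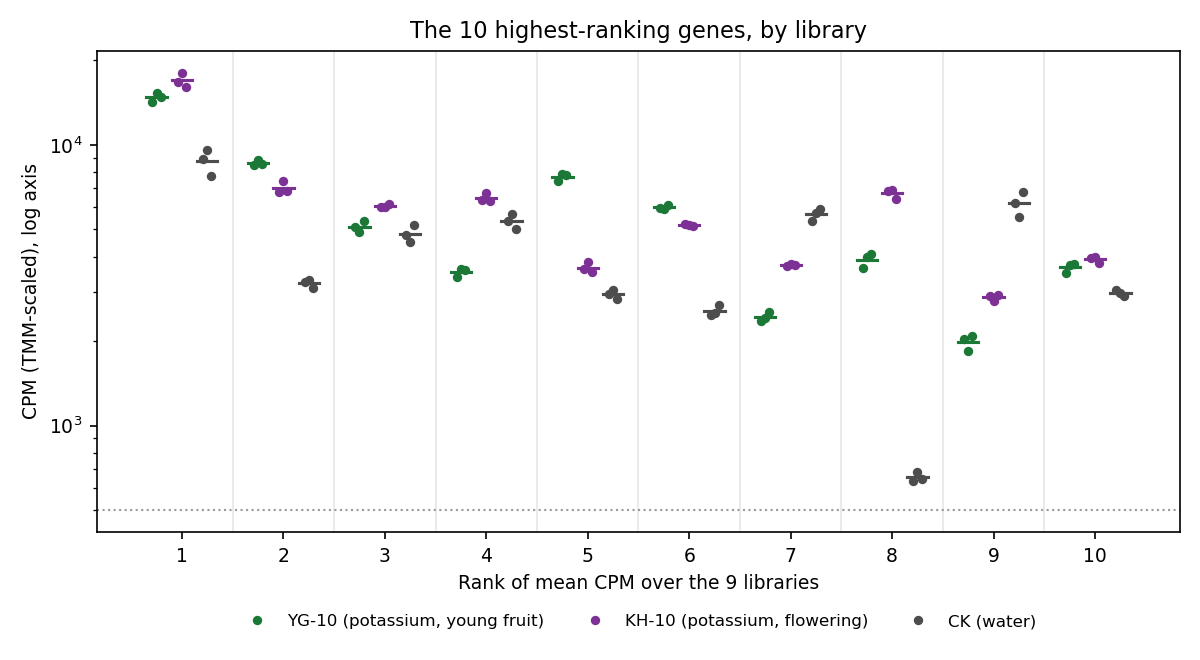
CPM of the 10 highest-ranking genes (x axis, rank of mean CPM) in each library on a log axis. Points are libraries, short lines are means of 3, the dotted line marks 500 CPM, and rank 8 shows the widest gap, with means of 3896 CPM in YG-10 and 6737 CPM in KH-10 against 655 CPM in CK.

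The 213 genes together held 26.2 ± 0.3% of counts in YG-10, 26.9 ± 0.2% in KH-10 and 24.7 ± 0.1% in CK (SD, n = 3 each). CK was the highest, not the lowest, for genes with a mean of at least 500 CPM over the 3 CK libraries, which held 22.5% in YG-10, 23.5% in KH-10 and 24.5% in CK. Both lists were chosen on values that enter these shares, so the order of the groups was favoured by the choice of libraries. The counts were concentrated even within the set of 213 genes, since 47 genes held 50% of its summed mean CPM. Only 4 genes exceeded a mean of 5000 CPM, 27 reached 2000 CPM, 51 lay between 1000 and 2000 CPM, and 135 lay between 500 and 1000 CPM. The median gene of the set had a mean of 821 CPM.

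Not every gene was abundant in every group. In all 9 libraries 132 of the 213 genes reached 500 CPM, and 81 were below it in at least 1 library. By group means 142 reached 500 CPM in all groups, 50 in YG-10 and KH-10 but not CK, 9 in KH-10 and CK alone, 2 in YG-10 and CK alone, 5 in CK alone, 3 in YG-10 alone and 2 in KH-10 alone. Below 500 CPM were 16 genes in YG-10, 10 in KH-10 and 55 in CK, and those 55 had CK means between 22.4 and 497 CPM with a median of 423 CPM. The number of all genes that reached 500 CPM was likewise larger with potassium, 242 ± 3 per library in YG-10 and 238 ± 6 in KH-10 against 187 ± 2 in CK. The TMM factors behind these CPM averaged 0.970 in YG-10, 0.973 in KH-10 and 1.06 in CK, and a higher factor lowers CPM. How many genes reach 500 CPM without the factors was not counted.

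The 55 genes with a CK mean under 500 CPM took 4.49 ± 0.05% of counts in YG-10, 4.17 ± 0.02% in KH-10 and 2.19 ± 0.01% in CK. The other 158 took 21.7 ± 0.2% in YG-10, 22.7 ± 0.2% in KH-10 and 22.6 ± 0.1% in CK. A gene that was under the threshold in CK could enter the set only by being higher with potassium, so the higher share of these 55 with potassium was fixed by the choice of genes and is no finding.

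**Figure D2:**
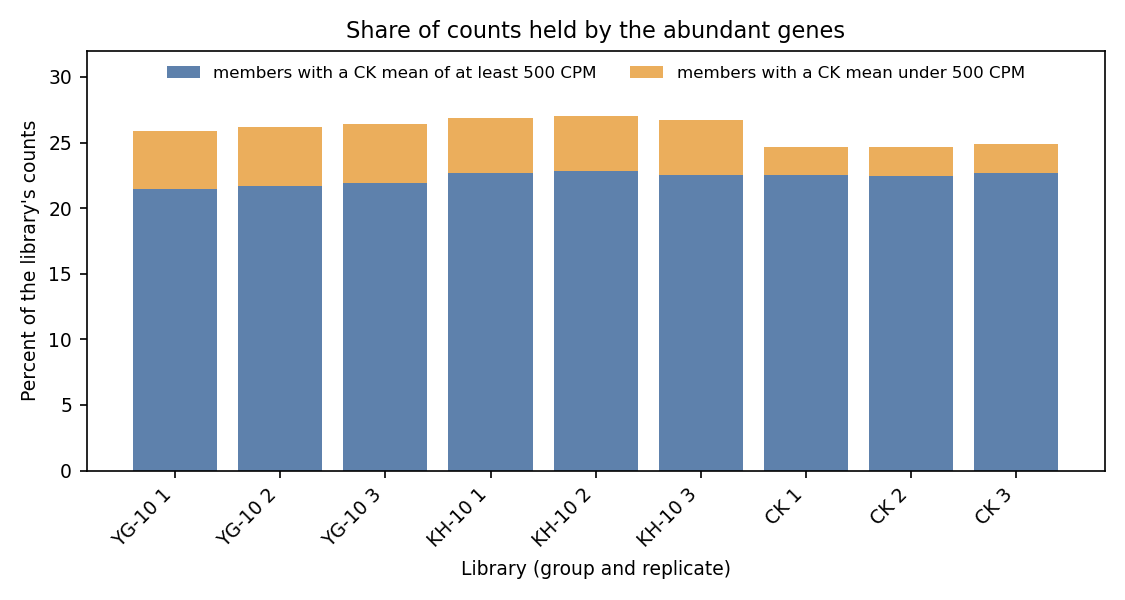
Percent of each library's counts (y axis) held by the 213 genes, split into the 158 with a CK mean of at least 500 CPM (blue) and the 55 below it (orange). The blue part lies between 21.4% and 22.9% in every library, while the orange part is near 4% in the 6 potassium libraries and near 2% in CK.

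The threshold itself cut through genes of unlike behaviour. Just inside it, ranks 211, 212 and 213 had means of 505, 504 and 500.04 CPM. Rank 213, a non-Vadar locus, averaged 665 CPM in YG-10 and 675 CPM in KH-10 against 160 CPM in CK. Just outside it, ranks 214, 215 and 216 had means of 499, 498 and 496 CPM. Rank 215 averaged 294 CPM in YG-10, 438 CPM in KH-10 and 762 CPM in CK, the reverse order.

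Replicates of these genes lay close together. The median coefficient of variation within a group was 3.47% in YG-10, 2.32% in KH-10 and 4.03% in CK, against 11.7%, 11.0% and 11.2% over all 25728 genes tested. All 213 genes passed the filter on low counts. The smallest count of any of them in a library was 320, and 212 of 213 had at least 1000 counts in every library. Changes well under 1.5-fold passed the test. The largest log2 fold change that did not pass was 0.14 in size for KH-10 against CK, 0.10 for YG-10 against CK and 0.19 for YG-10 against KH-10. Over all genes, most of which have far fewer counts, the same limits were 2.53, 2.26 and 4.35. The biological coefficient of variation that edgeR estimated had a median of 4.76% for the 213 genes and 11.6% for the other genes tested. Which of these differences from other genes bears on the share called was not tested.

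Potassium at flowering was compared with water first. In KH-10 against CK 139 of the 213 genes rose and 52 fell, 89.7% in all, where 48.7% of all genes tested were called (24.3% higher and 24.4% lower). The 2 groups did not overlap in 192 of the 213 genes, against 55.8% of all genes tested. Most changes were small: 106 of the 191 called genes changed less than 1.5-fold, 42 changed between 1.5-fold and 2-fold, and 43 changed at least 2-fold. Of those 43, 28 rose and 15 fell, 20.2% of the set, where 17.4% of all genes tested were called at that size (6.08% higher and 11.3% lower). This balance turned with the choice of genes: those with a mean of at least 500 CPM over the 3 CK libraries comprised 6 that rose and 32 that fell at least 2-fold, and those with such a mean over the 6 potassium libraries 42 and 9. A size of 4-fold or more was reached by 9 of the rises and 3 of the falls.

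The largest rise in KH-10 was that of a non-Vadar locus at rank 75. Its levels were 1498, 1587 and 1418 CPM in KH-10 and 21.7, 26.0 and 19.4 CPM in CK, a 66.2-fold difference (log2 fold change 6.05 ± 0.08, SE, edgeR adjusted p = 2.43e-24). By group means it was rank 48 in KH-10 and rank 7804 in CK. Next was Vadar_g40907.v1.2 (rank 41), with 2559, 2641 and 2660 CPM in KH-10 and 150, 137 and 152 CPM in CK, 17.8-fold higher (log2 fold change 4.15 ± 0.05, SE, edgeR adjusted p = 2.70e-25). Both genes belong to the 213 only through the potassium libraries.

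The largest fall in KH-10 was seen at rank 35, another non-Vadar locus, with 649, 673 and 675 CPM in KH-10 and 3675, 3921 and 3474 CPM in CK. It fell by 2.48 ± 0.05 on the log2 scale (SE, edgeR adjusted p = 6.48e-22), and was rank 158 in KH-10 and rank 8 in CK. Vadar_g252.v1.2 (rank 125) had 338, 334 and 347 CPM in KH-10 and 1383, 1430 and 1363 CPM in CK, a log2 fold change of -2.05 ± 0.04 (SE, edgeR adjusted p = 4.40e-21). Replicates of both genes differed by far less than the groups. Vadar_g252.v1.2 averaged 340 CPM in KH-10 and 534 CPM in YG-10 against 1392 CPM in CK. Its mean over the potassium libraries together was under 500 CPM. This gene thus belongs to the abundant genes only through the CK libraries, where it was highest, so its fall was favoured by the choice of genes.

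Potassium at young fruit was compared with the same CK libraries, so the 2 comparisons are not independent. In YG-10 against CK 138 of the 213 genes rose and 53 fell, 89.7%, where 51.3% of all genes tested were called (25.6% higher and 25.7% lower). Groups did not overlap in 188 genes, against 57.3% of all genes tested. Below 1.5-fold lay 88 of the 191 called genes, between 1.5-fold and 2-fold lay 50, and at or over 2-fold lay 53. The 53 comprised 33 that rose and 20 that fell, 24.9% of the set, where 19.3% of all genes tested were called at that size (7.25% higher and 12.0% lower). With genes chosen by the CK libraries 9 rose and 35 fell at least 2-fold, and with genes chosen by the potassium libraries 52 rose and 14 fell. Changes of 4-fold or more numbered 9 upward and 4 downward.

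Rank 75 also rose most in YG-10, with 1379, 1606 and 1578 CPM against the CK values above (log2 fold change 6.07 ± 0.08, SE, edgeR adjusted p = 2.28e-24). Vadar_g40907.v1.2 came next with 1765, 1661 and 1716 CPM in YG-10 (log2 fold change 3.54 ± 0.05, SE, edgeR adjusted p = 2.28e-24). The largest fall was again that of rank 35, which had 448, 439 and 414 CPM in YG-10, a log2 fold change of -3.10 ± 0.05 (SE, edgeR adjusted p = 2.02e-23). Vadar_g2639.v1.2 (rank 17) had 959, 927 and 1018 CPM in YG-10 and 5314, 5252 and 5807 CPM in CK, a log2 fold change of -2.51 ± 0.05 (SE, edgeR adjusted p = 4.79e-22). That gene was rank 88 in YG-10 and rank 4 in CK, and it stood at 1301, 1339 and 1396 CPM in KH-10.

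**Figure D3:**
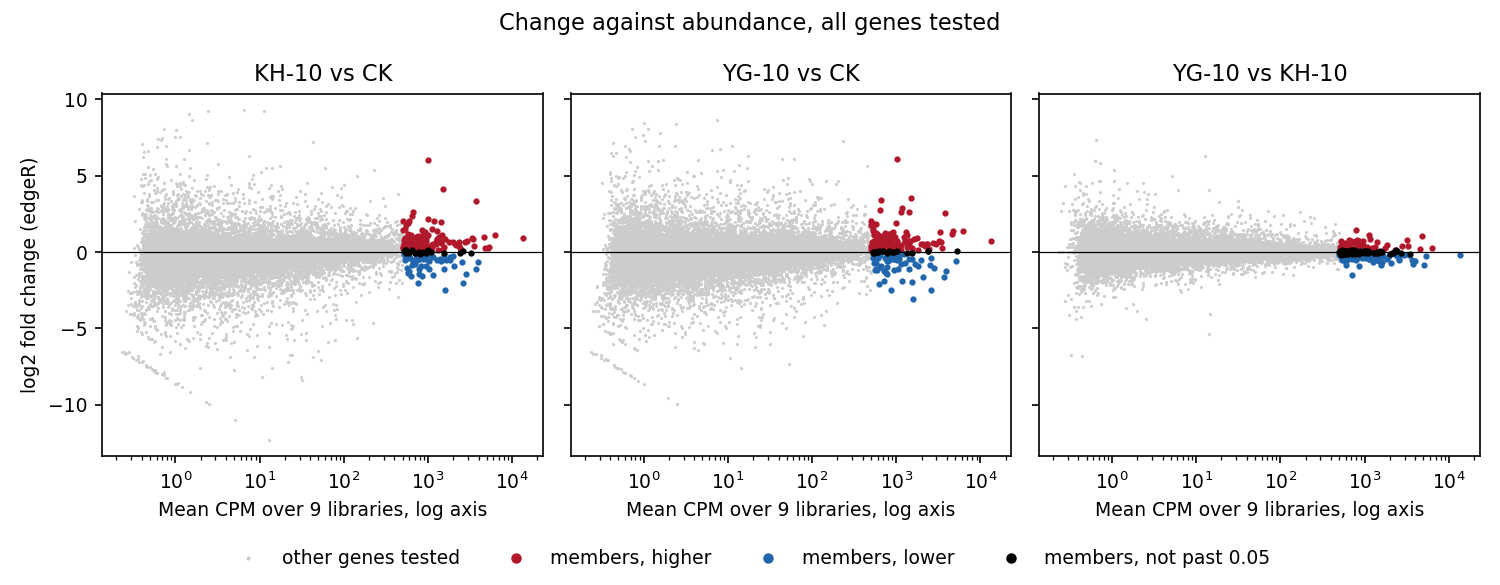
Log2 fold change (y axis) against mean CPM over 9 libraries (x axis, log) for all 25728 genes tested, with the 213 abundant genes coloured by their edgeR call. In both comparisons with CK red points (139 and 138 higher) outnumber blue ones (52 and 53 lower), and in YG-10 against KH-10 the coloured and black points lie within 1.53 of 0.

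More of the abundant genes rose than fell against CK, and this balance depended on which libraries chose them. The median log2 fold change of the 213 genes was 0.31 in KH-10 against CK and 0.29 in YG-10 against CK, beside -0.02 over all genes tested in each. All 55 genes with a CK mean under 500 CPM were held in the set by their potassium levels, and of these 54 rose and 0 fell in KH-10, and 53 rose and 0 fell in YG-10. Of the 158 with a CK mean of at least 500 CPM, 85 rose and 52 fell in KH-10, and 85 rose and 53 fell in YG-10.

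Choosing by CK alone gave another balance. A mean of at least 500 CPM over the 3 CK libraries was reached by 186 genes, the 158 above and 28 that are not among the 213. Of these 186, 85 rose and 79 fell in KH-10, with a median log2 fold change of -0.0020, and 85 rose and 80 fell in YG-10, with a median of 0.04. Over all genes tested 24.3% rose and 24.4% fell in KH-10, and 25.6% rose and 25.7% fell in YG-10. Changes of at least 2-fold among the 186 were mostly falls, 32 of 38 in KH-10 and 35 of 44 in YG-10. Falls also prevailed at that size over all genes tested, 2918 of 4482 in KH-10 and 3093 of 4957 in YG-10. A mean of at least 500 CPM over the 6 potassium libraries, an alternative added after the data had been seen, was reached by 238 genes, with medians of 0.40 and 0.40. Each of these lists was chosen in part on the values compared, so none gives a balance free of its own choice.

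**Figure D4:**
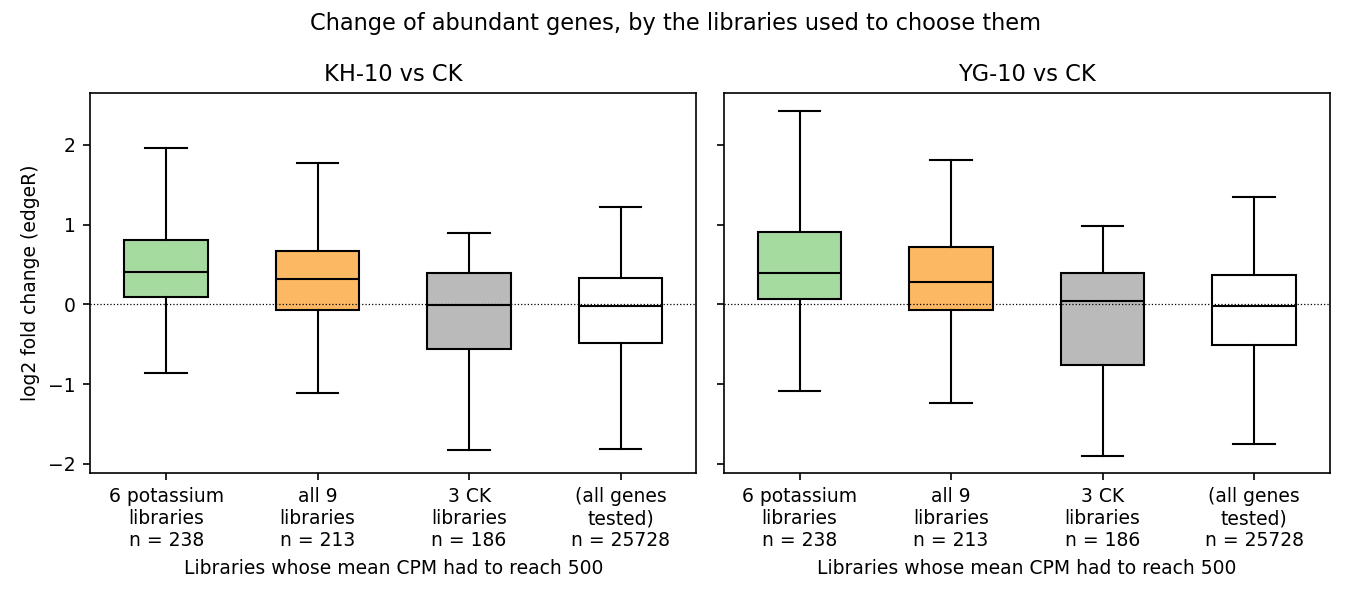
Log2 fold change (y axis) of genes with a mean of at least 500 CPM over the 6 potassium libraries, all 9 libraries or the 3 CK libraries, and of all genes tested. Boxes span the quartiles, lines in them are medians and whiskers reach the 5th and 95th percentiles; the medians step down from 0.40 over 0.31 to -0.0020 in KH-10 against CK.

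The calls were also counted by abundance class within the set. In KH-10 against CK 18 of 27 genes at 2000 CPM or more rose and 6 fell, as did 32 and 16 of the 51 genes at 1000 to 2000 CPM, and 89 and 30 of the 135 genes at 500 to 1000 CPM. In YG-10 against CK the numbers were 16 and 8, 31 and 17, and 91 and 28. Over all genes tested 24.3% rose and 24.4% fell in KH-10, and 25.6% rose and 25.7% fell in YG-10. At least 2-fold, 3 rose and 3 fell in KH-10 in the class at 2000 CPM or more, against 16 and 8 in the class at 500 to 1000 CPM. In YG-10 these were 5 and 5, against 20 and 10, and the classes were not tested against each other. At that size 6.08% of all genes tested rose and 11.3% fell in KH-10, and 7.25% rose and 12.0% fell in YG-10. Each class was chosen by mean CPM over the same libraries, so its balance also depends on that choice. The 19 non-Vadar loci comprised 12 that rose and 5 that fell in KH-10, and 11 that rose and 7 that fell in YG-10. Among the 194 Vadar genes 127 rose and 47 fell in KH-10, and 127 rose and 46 fell in YG-10.

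The effect of timing was measured directly between the potassium groups. Relative to KH-10, 52 of the 213 genes were higher and 80 lower in YG-10, 62.0% in all, where 19.6% of all genes tested were called (10.4% higher and 9.24% lower). The groups did not overlap in 159 genes, against 34.2% of all genes tested. These differences were small: 103 of the 132 were under 1.5-fold and 25 between 1.5-fold and 2-fold. Only 4 of 213 genes, 1.88%, differed at least 2-fold, 3 higher and 1 lower, where 4.43% of all genes tested did (2.93% higher and 1.51% lower). The median log2 fold change was -0.05, beside -0.0035 over all genes tested.

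Lower values in YG-10 were more frequent at the top of the list. Of the 27 genes at 2000 CPM or more 7 were higher and 14 lower, of the 51 at 1000 to 2000 CPM 9 were higher and 24 lower, and of the 135 at 500 to 1000 CPM 36 were higher and 42 lower. Of the 19 non-Vadar loci 1 was higher and 9 were lower, and of the 194 Vadar genes 51 were higher and 71 lower. Over all genes tested 10.4% were higher and 9.24% lower. The trend over classes was not tested.

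The 4 genes past 2-fold were rank 5, described above, and 3 others. Vadar_g25244.v1.2 (rank 114) had 1163, 1339 and 1292 CPM in YG-10, 472, 474 and 452 CPM in KH-10, and 603, 711 and 584 CPM in CK. It was 2.72-fold higher in YG-10 than in KH-10 (1.44 ± 0.06 on the log2 scale, SE, edgeR adjusted p = 2.27e-14) and lay on opposite sides of CK, with log2 fold changes of 0.99 ± 0.06 in YG-10 and -0.45 ± 0.06 in KH-10 (SE, edgeR adjusted p = 1.92e-12 and 1.21e-06). Vadar_g7456.v1.2 (rank 63) had 2104, 2046 and 2108 CPM in YG-10, 968, 959 and 937 CPM in KH-10, and 343, 290.03 and 369 CPM in CK. Its 3 groups were graded without overlap, with YG-10 2.19-fold over KH-10 (log2 fold change 1.13 ± 0.06, SE, edgeR adjusted p = 6.15e-13).

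Vadar_g40765.v1.2 (rank 133) was the gene that was lower by more than 2-fold. It had 279, 294 and 278 CPM in YG-10, 807, 852 and 803 CPM in KH-10, and 1023, 1053 and 1066 CPM in CK, so that YG-10 lay far below both other groups (log2 fold change against KH-10 -1.53 ± 0.04, SE, edgeR adjusted p = 3.89e-17). Vadar_g13492.v1.2 (rank 100) followed, with 300, 307 and 314 CPM in YG-10, 556, 575 and 576 CPM in KH-10, and 1668, 1654 and 1759 CPM in CK (log2 fold change against KH-10 -0.89 ± 0.04, SE, edgeR adjusted p = 2.43e-13). Its mean over the potassium libraries together was under 500 CPM. It thus belongs to the abundant genes only through the CK libraries, and its higher level there was favoured by the choice of genes. Rank 75, the gene with the largest rise over CK, did not pass the test between timings (log2 fold change 0.02 ± 0.06, SE, edgeR adjusted p = 0.870).

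**Figure D5:**
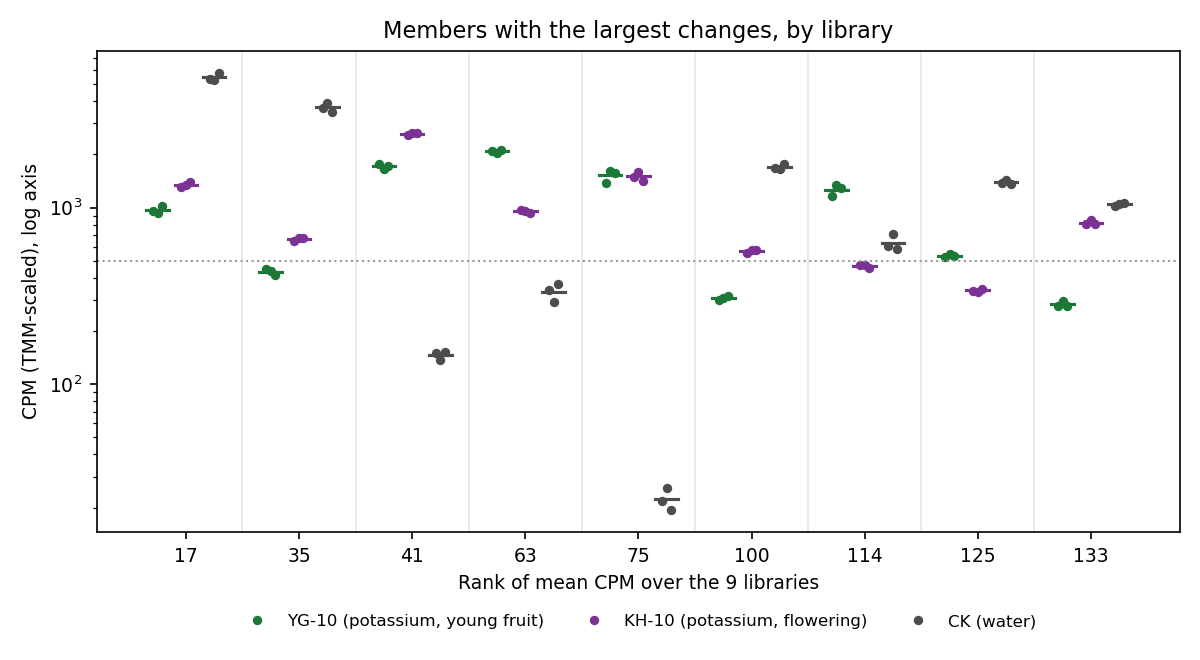
CPM on a log axis (y) in each library for the 9 genes named for the largest changes, by rank of mean CPM (x). Points are libraries, short lines are means of 3 and the dotted line marks 500 CPM; rank 75 averages 1521 CPM in YG-10, 1501 CPM in KH-10 and 22.4 CPM in CK, and rank 114 lies above its CK level in YG-10 and below it in KH-10.

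Across the 3 groups the ratio of the highest to the lowest group mean had a median of 1.59 over the 213 genes and ran from 1.01 to 68.0. It was under 1.2 in 29 genes, at least 2 in 60 and at least 4 in 16. Among the 16, 6 were highest in YG-10, 5 in KH-10 and 5 in CK. Over the whole set 80 genes (37.6%) were highest in YG-10, 83 (39.0%) in KH-10 and 50 (23.5%) in CK, beside 30.3%, 27.7% and 42.0% of all genes tested. By the rule of membership, the 55 genes with a CK mean under 500 CPM could not be highest in CK. Nor could the 16 under it in YG-10 or the 10 under it in KH-10 be highest there. The contrast with all genes was thus fixed in part by the choice of genes.

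In 9 genes none of the 3 comparisons passed the threshold. The 3 with the most counts were ranks 21, 38 and 91. Rank 21 averaged 2484 ± 125 CPM in YG-10, 2311 ± 53.9 CPM in KH-10 and 2352 ± 100.5 CPM in CK. Rank 38 averaged 1543 ± 41.6 CPM in YG-10, 1534 ± 38.2 CPM in KH-10 and 1593 ± 50.2 CPM in CK. Rank 91 was the closest to level, with 889 ± 23.7 CPM in YG-10, 883 ± 18.6 CPM in KH-10 and 881 ± 10.6 CPM in CK. Their standard errors of the log2 fold change were near 0.04, so differences of about 0.1 on the log2 scale could have gone undetected.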

How the data were processed

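RNA was sequenced from fruit in 9 libraries, 3 per group, grouped by their titles. Values are counts, whole numbers per gene and library as deposited, per the file headers, without normalization. HISAT2 2.1.0 and StringTie 1.3.4d are named in the submitters' processing notes without roles; for the counting tool, build, annotation and strand handling the entry is: not given in the sources used here, so whether the counts are rounded estimates of a transcript assembler, which would change what sampling noise and small counts mean, and whether they were split between near-identical copies of a polyploid gene, cannot be told.

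CPM was computed with edgeR 4.0.16 (R 4.3.3) from TMM factors over all 38665 rows, and members have a mean CPM of at least 500. The test was edgeR's quasi-likelihood F test over all 9 libraries with 1 term per group, after filterByExpr (minimum count 10, minimum total 15) had left 25728 genes, with Benjamini-Hochberg adjustment over these and a threshold of 0.05. The threshold on fold, where used, was 2-fold. The SE was obtained by dividing the log2 fold change by √F. "Rose" and "fell" are used of genes past that threshold only.

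In each comparison the 2 members that rose and the 2 that fell most, with groups that do not overlap, were named; the 10 highest, those at the threshold and 3 called nowhere are given by rank. The table pairs no identifier with a gene name, so gene lists by function and cell type markers could not be matched. The members and these choices were made with earlier results of these data known. Depth was 15655016 to 18424967 counts per library. Alternatives covered 4 other scalings, no filter, DESeq2 1.42.0, a test against 1.5-fold, fits to 2 groups, a replicate block, each library left out, and other rules of membership.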

Additional observations from a re-analysis of the deposited data

Results flagged for a closer look

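In the direct edgeR test of YG-10 against KH-10, 132 of the 213 genes differed (62.0%), where 19.6% of all genes tested did. Their responses relative to CK were thus unlike at the 2 timings. Most of these differences were small, since 103 of the 132 were under 1.5-fold. At least 2-fold, 4 of the 213 genes differed (1.88%), against 4.43% of all genes tested. Among the 10 highest-ranking genes, YG-10 was lower than KH-10 at ranks 1, 3, 4, 7, 8 and 9, with log2 fold changes of -0.20, -0.24, -0.87, -0.61, -0.79 and -0.53, and higher at ranks 2, 5 and 6, with 0.30, 1.08 and 0.21. Among the genes named for their change, YG-10 was lower at ranks 17, 35, 41, 100 and 133, with log2 fold changes of -0.47, -0.62, -0.61, -0.89 and -1.53, and higher at ranks 63, 114 and 125, with 1.13, 1.44 and 0.66. All of these are differences between groups of 3 libraries each.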

How the results depend on the processing

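All 12 values for single named genes kept their direction and call under each alternative run. These had been picked as the largest changes with groups that do not overlap, so their stability says little about the other genes. Testing against a 1.5-fold change left 75 genes called in KH-10 against CK, 94 in YG-10 against CK and 17 in YG-10 against KH-10. No share of all genes was computed for that test. With a mean of at least 250 CPM (605 genes) 513, 515 and 331 were called in these comparisons, and 106, 123 and 18 at least 2-fold, with medians of 0.28 and 0.25 against CK. With at least 1000 CPM (78 genes) 72, 72 and 54 were called, and 19, 23 and 2 at least 2-fold, with medians of 0.33, 0.27 and -0.10. Of all genes tested 48.7, 51.3 and 19.6% were called in these comparisons, and 17.4, 19.3 and 4.43% at least 2-fold. With at least 500 CPM over the CK libraries the medians were -0.0020, 0.043 and -0.089, and 7 genes differed at least 2-fold between timings; over the potassium libraries they were 0.40, 0.40 and -0.012, and 9 did. These follow from the other genes chosen. Shares of counts in YG-10, KH-10 and CK were 40.0, 40.3 and 37.6% at 250 CPM, and 16.6, 17.4 and 15.8% at 1000 CPM. For the choice by CK they were 22.5, 23.5 and 24.5%. There CK is the highest and not the lowest, an order favoured by that choice.

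Without TMM factors (library size only) the median of all genes became -0.13 and -0.14 against CK, and that of the members 0.20 and 0.17; upper quartile scaling gave the members 0.26 and 0.22. The distance of the members' median from that of all genes, 0.33 and 0.31, hardly moves under scaling by construction, since a factor per library shifts all genes nearly alike. Library size scaling split the calls into 126 higher and 67 lower in KH-10, and 116 and 63 in YG-10. With DESeq2 the calls numbered 192, 191 and 134, and 190, 189 and 132 of them were shared with edgeR. No share of all genes was computed under library size scaling or with DESeq2, so these counts have no background beside them.

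Without each library in turn, calls numbered 186 to 193, 180 to 192 and 120 to 143, and at least 2-fold 41 to 43, 52 to 56 and 4 each time. Medians ran from 0.31 to 0.33, 0.28 to 0.30 and -0.06 to -0.03, and shares from 26.0 to 26.3% in YG-10, 26.8 to 27.0% in KH-10 and 24.7 to 24.8% in CK. The members were not chosen anew in these fits. Whether replicate numbers pair the libraries cannot be settled with 3 libraries per group. Deviations of same-numbered libraries correlated between -0.04 and 0.05, and 4, 2 and 2 of the 6 libraries of a comparison matched best with their own number. With the replicate number as a block 196, 192 and 141 genes were called, against 191, 191 and 132 without it. No share of all genes was computed for the block or for the fits without a library.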

Other observations

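Spread within CK was wider for a few of the abundant genes. The coefficient of variation was over 10% in 2 of the 213 genes in YG-10, 0 in KH-10 and 16 in CK. In 13 of these 16 genes CK replicate 2 was the library farthest from the median, and in the other 3 it was CK replicate 3. CK replicate 2 was the lowest of its group in 10 of the 16 and the highest in 6. CK replicate 3 was the lowest in 6 and the highest in 10, so these 2 libraries lay at opposite ends with CK replicate 1 between them. CK replicate 2 was also the library with the largest total, 18424967 counts. Whether total and spread are related was not tested.

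Among the 194 Vadar members there were 5 pairs with consecutive identifier numbers. They are not separate, since ranks 46, 33 and 19 form 1 run. The values in KH-10 against CK were, by pair, ranks 29 and 7 with log2 fold changes of -0.27 and -0.62, ranks 33 and 19 with -0.54 and -0.64, ranks 46 and 33 with -0.56 and -0.54, ranks 95 and 14 with 0.64 and 0.75, and ranks 161 and 165 with 0.45 and 0.31. Most members rose, and no rate of like changes was computed for other genes, so nothing is read from these signs. Whether consecutive numbers mark neighbouring genes is not given in the sources used here, and whether the counting divided reads between similar copies was not tested.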
